A study of Homo sapiens with 6 samples.

Results

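The genes described here are 10 surface and junction genes of the endothelium, measured in human TYK-nu cells, a line that the labels give as ovarian cancer. They are CDH5, PECAM1, ESAM and CLDN5 of the cell junctions, CD93, ICAM2, EMCN and PLVAP of the cell surface, and VWF and THBD of blood clotting. They were picked by symbol, with their levels in these libraries known, to take in endothelial markers that the line carries and others that it lacks, so their levels are given as a description without a test. All 10 were found among the 62260 gene rows of each library. Of these 10, CDH5, PECAM1, ESAM, CD93, ICAM2, VWF and THBD (7 genes) passed the filter on low counts, among 14166 genes tested, and CLDN5, PLVAP and EMCN did not.

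Total RNA was sequenced from 3 libraries of wild type (WT) cells and 3 libraries of ZNFX1 knockout (ZNFX1 KO) cells, both grown without drug. The labels call the libraries of a group biological replicates and say no more of their source, so a p-value here reflects the spread among the libraries, which may be technical. No clone and no method of knockout is named, so loss of ZNFX1 and other differences between the WT and KO cells cannot be told apart. The gene rows held 19115530 to 21036063 fragments per library. ZNFX1, an RNA helicase-like zinc finger protein, was at 130, 208 and 109 CPM (counts scaled to library size, after TMM) in WT 1, 2 and 3 and at 102, 70.4 and 75.1 CPM in ZNFX1 KO 1, 2 and 3. The groups did not overlap, with the KO libraries lower, and the difference did not pass the threshold (log2 fold change -0.85, SE 0.27, edgeR adjusted p = 0.218). The mRNA of ZNFX1 was thus still present in the libraries labelled as knockout.

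Endothelial cells line blood vessels and hold together through adherens junctions, in which VE-cadherin (CDH5) binds its like on the next cell and catenins inside, and through tight junctions, in which claudin-5 (CLDN5) seals the gap. PECAM1 and ESAM are immunoglobulin-type adhesion proteins that gather at the same contacts, and leukocytes pass through them on their way into tissue. On the surface facing the blood, thrombomodulin (THBD) turns thrombin from a clotting enzyme into an activator of protein C, and von Willebrand factor (VWF) is stored for release to catch platelets. Several of these genes are also used by platelets or leukocytes.

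The label was checked against 12 markers of ovarian and epithelial cells. MUC16, the CA-125 antigen, FOLR1 and EMX2 had 0 reads in all 6 libraries, and 7 of the 12, among them PAX8, the Mullerian lineage factor, and CDH1, the epithelial cadherin, were below 0.1 TPM (the deposited level, which is per transcript length) in every library. The 3 markers with a mean of at least 1 TPM were KRT18 at 65.8 TPM, KRT8 at 6.15 TPM and WT1 at 1.58 TPM. The markers of the labelled cell type were therefore absent or under a mean of 1 TPM, with KRT18, KRT8 and WT1 as the exceptions. Of 33 other endothelial surface genes, 21 had a mean of at least 1 TPM, among them the receptors TIE1 at 89.5 TPM, FLT1 at 48.0 TPM, TEK at 23.0 TPM and KDR at 10.2 TPM. Of 22 endothelial transcription factors, 15 had a mean of at least 1 TPM, among them the ETS factor ERG at 4.37 TPM. Among the rest, SOX17, KLF4 and PROX1 had 0 reads in every library, SOX18 was at 0.136 TPM and ETV2 at 0.0806 TPM. Of 16 markers of leukocytes, platelets and red cells, only LYZ had a mean of at least 1 TPM, at 1.63 TPM, and 9, among them PTPRC, PF4 and HBB, had 0 reads in every library. The summed level of these 16 was 0.205 to 1.87 TPM in WT and 1.50 to 4.62 TPM in the KO, against 536 to 688 TPM and 524 to 556 TPM for the 10 endothelial genes. Those 10 genes were picked with their levels known, so their sum follows from the choice and is no support for a cell type. Of 10 mural and fibroblast markers only RGS5 had a mean of at least 1 TPM, at 2.76 TPM. The summed level of these 10 was 1.12 to 2.10 TPM in WT and 3.76 to 6.94 TPM in the KO, with no overlap between the groups. Most of this sum was RGS5 alone, at 0.689 to 1.23 TPM in WT and 3.27 to 5.83 TPM in the KO. Mean CSPG4 was 0.272 TPM in WT and 0.698 TPM in the KO, and ACTA2 went the other way, at 0.311 and 0.147 TPM. The sum therefore does not speak for the list as a whole, and its part in the differences between WT and KO was not tested. In this bulk RNA, a smaller share of cells with a transcript and less of it per cell cannot be told apart.

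**Figure D1:**
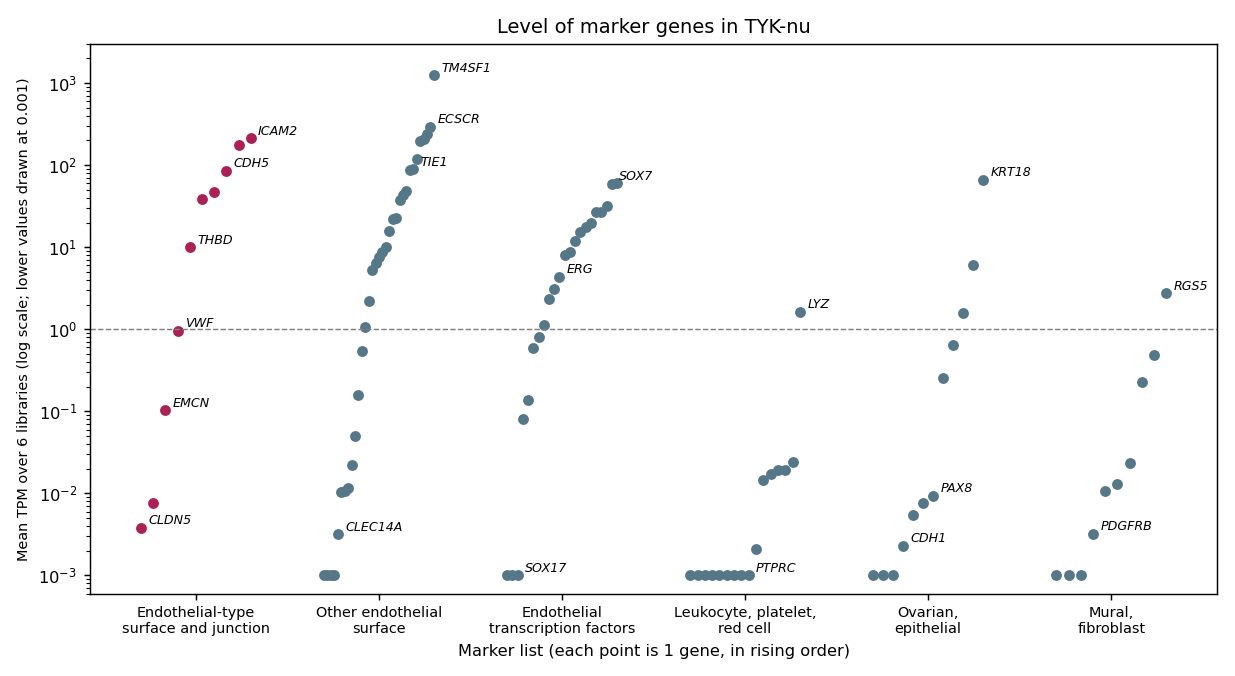
Mean level over the 6 libraries on a log scale in TPM, with 1 point per gene in rising order within each marker list, with levels under 0.001 TPM drawn at 0.001 and the dashed line at 1 TPM. ICAM2 at 214 TPM and ECSCR at 294 TPM stand near the top, while the leukocyte list has only LYZ, and the ovarian list only KRT18, KRT8 and WT1, above the line.

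The promoters of EMCN and PLVAP, members with few or no reads, are shown beside that of ECSCR, an endothelial surface regulator at 294 TPM that was chosen for its level after the values were seen. Each stretch is the part of the 250 bases before the RefSeq gene start (GRCh38.p14) that lies outside any exon of GENCODE 29, on the minus strand, 5′ to 3′, with GGAA or its reverse complement TTCC, the core letters that ETS factors bind, in capitals.
EMCN, chr4:100518094-100518272: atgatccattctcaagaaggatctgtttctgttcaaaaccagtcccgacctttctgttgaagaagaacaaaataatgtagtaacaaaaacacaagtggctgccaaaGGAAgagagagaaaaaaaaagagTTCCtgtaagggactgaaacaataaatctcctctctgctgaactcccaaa
PLVAP, chr19:17377351-17377592: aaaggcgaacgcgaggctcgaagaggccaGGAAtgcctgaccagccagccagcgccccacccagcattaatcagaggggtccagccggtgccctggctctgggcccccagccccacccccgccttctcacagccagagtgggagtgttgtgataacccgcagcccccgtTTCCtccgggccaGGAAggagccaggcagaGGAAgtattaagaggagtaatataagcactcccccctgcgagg
ECSCR, chr5:139462744-139462993: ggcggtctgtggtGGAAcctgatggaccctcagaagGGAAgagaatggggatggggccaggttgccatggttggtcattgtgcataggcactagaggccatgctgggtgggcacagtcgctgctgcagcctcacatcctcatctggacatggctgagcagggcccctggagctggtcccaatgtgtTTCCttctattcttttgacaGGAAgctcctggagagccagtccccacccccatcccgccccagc
Each of the 3 windows of 250 bases held 4 such cores, and 92.7% of the 35116 promoters of the same length in the table held at least 1. The longer form CAGGAAG, which contains the core and was searched on both strands, occurred once in the PLVAP window, once in the ECSCR window and not in the EMCN window, and was found in 10.5% of all promoters. It was thus present before a gene with almost no reads and before a gene at a high level. Among the members and the other endothelial surface genes in the table, CAGGAAG was in 7 of 19 genes with a mean of at least 1 TPM and in 2 of 10 below 1 TPM. The other ETS form CCGGAAG was in none of these genes and in 8.52% of all promoters. A gene was counted if any of its promoters held the letters. The shares of all promoters are per promoter, so the counts of genes cannot be set against them. The EMCN stretch lies inside the span that GENCODE 29 gives that gene, 100395341 to 100880126, so it is not before the outermost start of that span. A match is a string of letters only and shows no binding.

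The 10 genes spanned the whole range from high levels to none. ICAM2 was the highest, at 214 ± 37.4 TPM (SD over all 6 libraries), a level above that of 99.0% of protein-coding genes. CD93 followed at 174 ± 28.9 TPM, CDH5 at 85.3 ± 18.4 TPM, ESAM at 46.6 ± 13.1 TPM, PECAM1 at 38.4 ± 18.2 TPM and THBD at 9.95 ± 3.44 TPM. VWF was at 0.952 ± 0.327 TPM, near the middle of protein-coding genes, of which 49.2% were lower. EMCN was at 0.103 ± 0.102 TPM, PLVAP at 0.00753 ± 0.0129 TPM and CLDN5 at 0.00383 ± 0.00937 TPM. CD93 and CDH5, CDH5 and ESAM, PECAM1 and THBD, THBD and VWF, and VWF and EMCN were separated in TPM in all 6 libraries. The ranges of the other neighbours in this order overlapped, and ICAM2 was above CD93, and ESAM above PECAM1, in 5 of 6 libraries. The place of PECAM1 depended on rows that the deposited files list by transcript and not by gene. With those rows added, PECAM1 stood at 77.9 TPM and ESAM at 62.3 TPM, so that their order turned. Of the estimated reads of each gene, 92.0% were in the gene row for PECAM1 and 75.9% for ESAM, and at least 90.9% for every other member.

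Of the junction genes, CDH5 (ENSG00000179776.20, chromosome 16, 66366622 to 66404786, plus strand, 13 exons in its longest coding transcript, GENCODE 29 on GRCh38) encodes the cadherin of endothelial adherens junctions. It was at 453, 438 and 517 CPM in WT 1, 2 and 3 and at 440, 539 and 605 CPM in ZNFX1 KO 1, 2 and 3. The groups overlapped, with ZNFX1 KO 3 the highest and WT 2 the lowest. Mean CPM was 469 ± 42.3 for WT against 528 ± 82.7 for ZNFX1 KO (SD, n = 3 each), a log2 fold change of 0.17 (SE 0.18, 95% interval -0.25 to 0.59, edgeR adjusted p = 0.669).

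ESAM (ENSG00000149564.12, chromosome 11, 124752583 to 124762290, minus strand), an adhesion protein of tight junctions that platelets also carry, was at 96.7, 92.0 and 119 CPM in the WT libraries and at 109, 129 and 166 CPM in the KO libraries. The groups overlapped only through WT 3, which was above ZNFX1 KO 1. The log2 fold change was 0.40 (SE 0.20, 95% interval -0.07 to 0.86, edgeR adjusted p = 0.391). An annotated antisense gene, AP000866.2, overlaps ESAM, and whether the counting used strand is not given in the sources used here.

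PECAM1 (ENSG00000261371.6, chromosome 17, 64319415 to 64413776, minus strand), a receptor for leukocyte passage, was at 372, 183 and 617 CPM in the WT libraries and at 384, 424 and 320 CPM in the KO libraries. The WT libraries alone covered the whole range, with WT 2 the lowest and WT 3 the highest of all 6. The log2 fold change was -0.06 (SE 0.38, 95% interval -0.91 to 0.80, edgeR adjusted p = 0.957). Its sign followed single libraries, at -0.39 without WT 2, 0.46 without WT 3 and 0.06 without ZNFX1 KO 3.

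CLDN5 (ENSG00000184113.10, chromosome 22, 19523024 to 19527545, minus strand), the claudin that seals endothelial tight junctions, had 0 reads in 5 libraries and 1 read in ZNFX1 KO 2. A library with 0 reads allows up to 3 reads, which correspond to 0.137 to 0.156 CPM in these libraries and cover counting error only. The adherens junction cadherin was thus abundant in libraries in which the tight junction claudin was at or under this limit.

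Of the surface genes, CD93 (ENSG00000125810.10, chromosome 20, 23079349 to 23086340, minus strand), a C-type lectin-like receptor of endothelium and myeloid cells, had the most reads of the 10. It was at 2124, 2466 and 1519 CPM in WT 1, 2 and 3 and at 1619, 1464 and 1493 CPM in the KO libraries. WT 1 and WT 2 stood above all others, and WT 3 lay among the KO libraries. Mean CPM was 2036 ± 479 for WT against 1525 ± 82.1 for ZNFX1 KO (SD, n = 3 each), with a log2 fold change of -0.42 (SE 0.22, 95% interval -0.91 to 0.08, edgeR adjusted p = 0.393).

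ICAM2 (ENSG00000108622.11, chromosome 17, 64002594 to 64020634, minus strand), a constitutive ligand of leukocyte integrins, was at 385, 309 and 367 CPM in the WT libraries and at 387, 234 and 329 CPM in the KO libraries. ZNFX1 KO 1 was the highest and ZNFX1 KO 2 the lowest, so the KO libraries enclosed the WT ones. The log2 fold change was -0.16 (SE 0.22, 95% interval -0.65 to 0.34, edgeR adjusted p = 0.747), and it was 0.03 without ZNFX1 KO 2. ICAM2 led in TPM with fewer reads than CD93. Its longest coding transcript has 1334 bases against 6708 for CD93, and TPM is per transcript length. Whether these lengths alone give the order was not tested. The coding gene PRR29 overlaps ICAM2 on the opposite strand.

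EMCN (ENSG00000164035.10, chromosome 4, 100395341 to 100880126, minus strand), the mucin-like endomucin of veins and capillaries, had 9, 10 and 15 reads in WT 1, 2 and 3 and 0, 3 and 3 reads in ZNFX1 KO 1, 2 and 3. The WT libraries were all above the KO libraries, which were all at or under the limit of 3 reads. EMCN was not tested in the main fit, and without the filter it did not pass (edgeR adjusted p = 0.144). PLVAP (ENSG00000130300.9, chromosome 19, 17351448 to 17377350, minus strand), which forms the diaphragms of endothelial fenestrae, had 1 read in WT 2 and 2 reads in ZNFX1 KO 3, with 0 in each of the rest. Both groups were under the limit for PLVAP, so no fold is given.

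Of the clotting genes, THBD (ENSG00000178726.7, chromosome 20, 23045633 to 23049741, minus strand, a single exon) was at 88.6, 94.1 and 52.5 CPM in WT 1, 2 and 3 and at 32.4, 45.4 and 51.3 CPM in ZNFX1 KO 1, 2 and 3. Every KO library was below every WT library, although WT 3 and ZNFX1 KO 3 were close. Mean CPM was 78.4 ± 22.6 for WT against 43.0 ± 9.63 for ZNFX1 KO (SD, n = 3 each). The log2 fold change was -0.86 (SE 0.26, 95% interval -1.47 to -0.26, unadjusted p = 0.0101), which did not pass the threshold (edgeR adjusted p = 0.201). Without WT 3 it was -1.07 and was called (edgeR adjusted p = 0.0278), in a setting in which 9.02% of 14585 genes were called. Over all alternatives the adjusted p of THBD ran from 0.0278 to 0.480, and its log2 fold change was negative in 15 of 15.

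VWF (ENSG00000110799.14, chromosome 12, 5948874 to 6124770, minus strand, 52 exons) was at 15.8, 8.89 and 9.97 CPM in the WT libraries and at 22.5, 9.51 and 11.4 CPM in the KO libraries. ZNFX1 KO 1 and WT 1 were the highest, and the other 4 libraries lay close together. The log2 fold change was 0.33 (SE 0.36, 95% interval -0.50 to 1.15, edgeR adjusted p = 0.677), and -0.14 without ZNFX1 KO 1. A pseudogene, VWFP1, copies part of VWF and had 0 to 4.02 estimated reads per library, and reads of the shared stretch could be split between them.

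**Figure D2:**
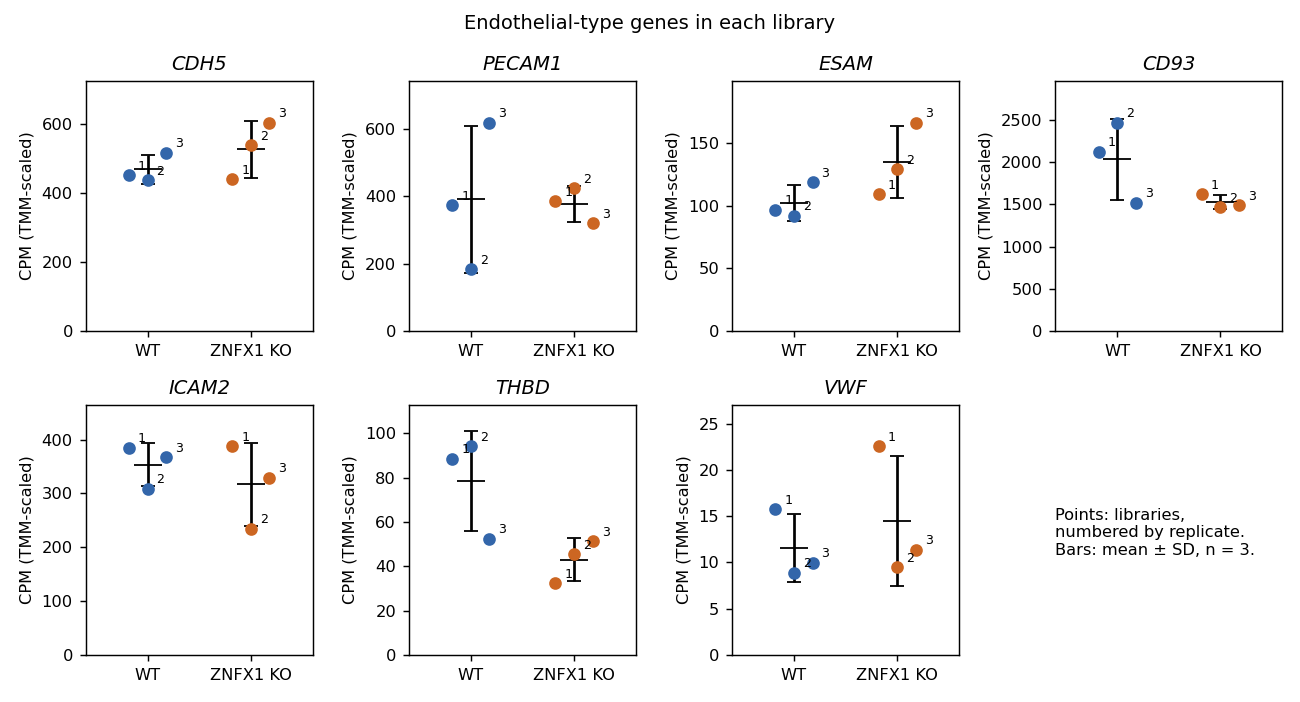
TMM-scaled CPM of the 7 tested genes in each library, with points numbered by replicate and bars at the mean ± SD (n = 3 per group). THBD is the only gene of the 7 in which the KO libraries, at 32.4 to 51.3 CPM, all lie below the WT libraries, at 52.5 to 94.1 CPM.

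In the comparison of ZNFX1 KO with WT, which asks which transcripts differ between the lines, 0 of the 7 tested genes passed an adjusted p of 0.05, where 0.727% of all 14166 tested genes did. At an unadjusted p under 0.05 there was 1 of 7, against 15.1% of all tested genes. DESeq2 also called 0 of the 7, where it called 3.91% of all genes. The count was 0 of 7 in every other alternative except without WT 3 as well, over backgrounds of 0.671% with RLE size factors, 0.784% with library totals, 2.11% without the filter, 0.806% with at least 1 CPM in 3 libraries, 0.339% and 0.466% with limma on log2(TPM + 1) and log2(TPM + 0.1), 0.0988% with the replicate block and 1.27% with transcript rows joined. Leaving out WT 1 or WT 2 gave backgrounds of 0.164% and 0.393%, and leaving out ZNFX1 KO 1, 2 or 3 gave 0.751%, 0.0137% and 0.0477%. The groups did not overlap for 1 of 7, THBD, against 20.2% of all tested genes. By direction, the KO lay below in 1 of 7, against 10.8% of all tested genes, and above in 0 of 7, against 9.39%. At the adjusted threshold the background was 0.268% higher and 0.459% lower. The log2 fold changes were positive in 3 and negative in 4, with a median of -0.06, against -0.01 over all tested genes. The 95% intervals of CDH5, ESAM, PECAM1, CD93, ICAM2 and VWF included 0, and those of PECAM1, -0.91 to 0.80, and VWF, -0.50 to 1.15, were the widest of these 6. A p above the threshold therefore does not show equal levels.

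**Figure D3:**
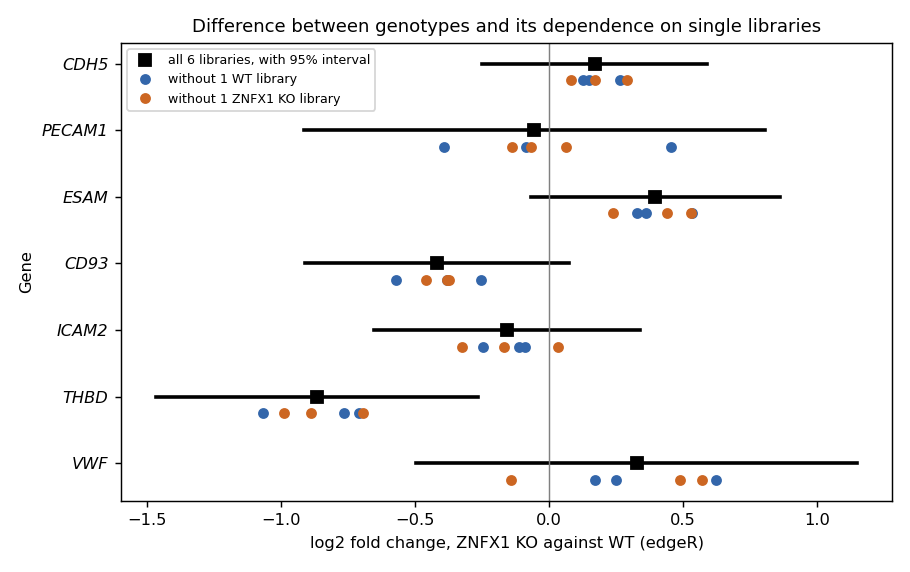
Log2 fold change of ZNFX1 KO against WT from edgeR for the 7 tested genes, with 95% intervals (black), and the values when 1 WT (blue) or 1 KO (orange) library is left out. THBD stays between -1.07 and -0.69 when 1 library is left out, while PECAM1, VWF and ICAM2 lie on both sides of 0.

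The tested genes did not move as one across the libraries. Relative to its own mean over the 6 libraries, on the log2 CPM scale, WT 2 stood at -0.98 for PECAM1, -0.46 for VWF, -0.34 for ESAM and -0.18 for CDH5, the lowest library in these 4. The same library was the highest for THBD, at 0.73, and for CD93, at 0.50. WT 3 was the highest for PECAM1, at 0.78, and lay below the mean for THBD, at -0.11, and CD93, at -0.20. Among the KO libraries, ZNFX1 KO 1 was the highest for VWF, at 0.88, and the lowest for THBD, at -0.80. ZNFX1 KO 3 was the highest for ESAM and CDH5, at 0.51 and 0.29.

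**Figure D4:**
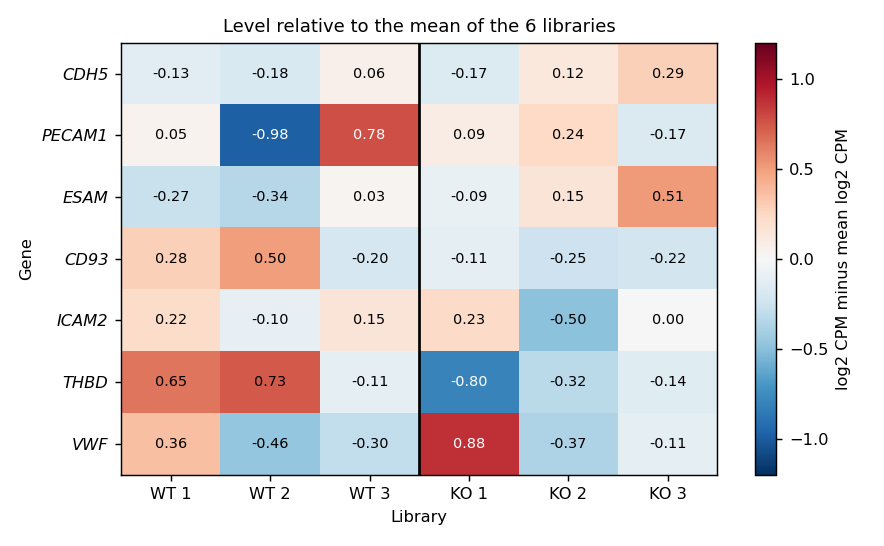
Level of each tested gene in each library as log2 CPM minus the gene's mean over the 6 libraries (red above, blue below the mean). WT 2 is lowest for CDH5, PECAM1, ESAM and VWF and highest for CD93 and THBD.

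THBD and CD93, which are known to belong to the same family of lectin-like receptors, lie next to each other on chromosome 20 on the same strand. Between them are 29607 bases with 1 other annotated gene and 0 protein-coding genes. Both were highest in WT 2, then WT 1. CLEC14A, a further member of that family and a marker of endothelium, had 0 reads in 5 libraries and 1 read in ZNFX1 KO 2. ICAM2 and PECAM1 also share a region, on chromosome 17, with 298780 bases and 2 protein-coding genes between them, ERN1 and TEX2. WT 2 was the lowest library for PECAM1 but not for ICAM2.

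The catenins and other partners of VE-cadherin were present. Of 10 listed genes 9 were tested, and 0 were called, against 0.727% of all tested genes (median log2 fold change 0.07). At an unadjusted p under 0.05 there was 1 of the 9, against 15.1% of all tested genes. The KO libraries lay wholly above WT for 3 of the 9, CTNNB1, CTNNA1 and VCL, and wholly below for 0. Of all tested genes, 9.39% lay wholly above and 10.8% wholly below. The most abundant of the 10 were CTNNA1, alpha-catenin, at 64.9 TPM, CTNNB1, beta-catenin, at 61.1 TPM, and the small GTPase RAP1B at 49.5 TPM. PTPRB, the phosphatase that pairs with VE-cadherin in endothelium, was not tested, at 0.0318 TPM. Of 15 genes of tight and immunoglobulin-type junctions 12 were tested, and 0 were called (median 0.12). At an unadjusted p under 0.05 there were 3 of the 12. The KO libraries lay wholly above WT for 1, F11R, and wholly below for 2, OCLN and PARD3. The shares of all tested genes are those given for the partners of VE-cadherin. F11R, a junctional adhesion molecule, was at 67.3 TPM, CD99 at 65.0 TPM and the gap junction gene GJA1 at 34.6 TPM. JAM2, the endothelial relative of F11R, was at 0.0393 TPM.

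Among the 33 other endothelial surface genes 22 were tested, and 0 were called, against 0.727% of all tested genes. Their median log2 fold change was 0.28, against -0.01 over all tested genes. An unadjusted p under 0.05 was found for 7 of the 22, against 15.1% of all tested genes. Every KO library was above every WT library for 5 of the 22, EGFL7, MMRN1, PODXL, ESM1 and APLN, and below for 0, against 9.39% and 10.8% of all tested genes. TM4SF1 was at 1247 TPM, ECSCR at 294 TPM and CAV1, the coat protein of caveolae, at 243 TPM. Of 11 genes that act with THBD and VWF in clotting 8 were tested, and 0 were called, against 0.727% of all tested genes. Their median log2 fold change was -0.33. At an unadjusted p under 0.05 there were 4 of the 8, against 15.1% of all tested genes. The KO libraries lay wholly above WT for PLAT alone and wholly below for TFPI alone, against 9.39% and 10.8% of all tested genes. PROCR, which presents protein C to thrombomodulin, was at 685 TPM and TFPI, the tissue factor inhibitor, at 65.3 TPM. PROC itself, made in liver, had 0 reads.

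Of 22 endothelial transcription factors 17 were tested (median 0.07), and 0 were called higher and 1 lower, against 0.268% and 0.459% of all tested genes. At an unadjusted p under 0.05 there were 7 of the 17. The KO libraries lay wholly above WT for 2 and wholly below for 3. The gene called lower was TAL1, a factor of the blood and vessel lineage (edgeR adjusted p = 0.0281). TAL1 was at 9.44, 13.4 and 10.5 CPM in WT and at 0.582 CPM in ZNFX1 KO 1, with 0 reads in ZNFX1 KO 2 and 3. The shares of all tested genes for these counts are given below. The call of TAL1 was kept in 11 of 15 alternatives. It was lost with the replicate block (edgeR adjusted p = 0.0993), without WT 1 (0.0973), without ZNFX1 KO 2 (0.159) and without ZNFX1 KO 3 (0.139). Together, 1 of the 68 tested genes of these 5 lists passed, against 0.727% of all genes tested. Of the same 68, an unadjusted p under 0.05 was found for 22, against 15.1% of all tested genes. The KO libraries lay wholly above WT for 12 and wholly below for 6, against 9.39% and 10.8% of all tested genes. These 5 lists were chosen with earlier results of these data known, so none of these counts is a test of a list.

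Some of these genes split the KO libraries, and PODXL, ESM1 and PLAT were chosen for this after their values were seen. PODXL, podocalyxin, was at 11.02, 7.68 and 7.79 CPM in WT, at 12.9 CPM in ZNFX1 KO 1 and at 143 and 118 CPM in ZNFX1 KO 2 and 3. ESM1, endocan, was at 0.663, 1.62 and 0.956 CPM in WT, at 2.71 CPM in ZNFX1 KO 1 and at 14.3 and 15.3 CPM in ZNFX1 KO 2 and 3. PLAT, tissue plasminogen activator, was at 14.7, 1.41 and 5.60 CPM in WT, at 16.4 CPM in ZNFX1 KO 1 and at 259 and 437 CPM in ZNFX1 KO 2 and 3. In the main edgeR analysis of all 6 libraries PODXL, ESM1 and PLAT did not pass (adjusted p = 0.0935, 0.0690 and 0.116). All 3 passed with the 6 libraries in edgeR without the filter on low counts (adjusted p = 7.7e-05, 0.000105 and 0.000123) and in DESeq2 (adjusted p = 0.00767, 1.9e-06 and 0.00674). Those settings called 2.11% and 3.91% of all genes. They also passed in edgeR without ZNFX1 KO 1 (adjusted p = 0.00243, 0.00944 and 0.0327), where 0.751% of all genes were called. PODXL, ESM1 and PLAT were chosen because ZNFX1 KO 1 stood apart from ZNFX1 KO 2 and 3, so this outcome follows from the choice and is no support. ESM1 passed as well with transcript rows joined (edgeR adjusted p = 0.0483) and without WT 3 (0.0442), where 1.27% and 9.02% of all genes were called. Of the junction genes, CDH5 was at 440 CPM in ZNFX1 KO 1, against 438 to 517 CPM in WT and 539 and 605 CPM in ZNFX1 KO 2 and 3. ESAM was at 109 CPM in ZNFX1 KO 1, against 92.0 to 119 CPM in WT and 129 and 166 CPM in ZNFX1 KO 2 and 3. PECAM1 showed no such split, with ZNFX1 KO 1, at 384 CPM, between ZNFX1 KO 2 and 3, at 424 and 320 CPM. RGS5, the mural marker, was at 3.88, 3.94 and 4.46 CPM in WT and at 14.7, 32.3 and 18.1 CPM in ZNFX1 KO 1, 2 and 3 (edgeR log2 fold change 2.40 with an SE of 0.31, adjusted p = 0.0203). RGS5 lost its call with the replicate block (edgeR adjusted p = 0.0807) and without WT 1 (0.101), ZNFX1 KO 2 (0.0700) or ZNFX1 KO 3 (0.0925). CSPG4, the NG2 proteoglycan of pericytes and the other tested gene of the 10 mural and fibroblast markers, was at 2.91, 2.22 and 4.83 CPM in WT 1, 2 and 3 and at 4.94, 9.77 and 10.9 CPM in the KO libraries. The KO libraries of CSPG4 lay wholly above WT, as did those of 9.39% of all tested genes. CSPG4 did not pass (log2 fold change 1.36, SE 0.39, unadjusted p = 0.00771, edgeR adjusted p = 0.182). The other 8 markers of that list were not tested, and DES and LUM among them had 0 reads in every library. ACTA2 had a lower mean in the KO, with overlap, at 0.408, 0.808 and 0.774 CPM in WT and 0.242, 0.453 and 0.260 CPM in the KO. PDGFRB, NOTCH3, COL1A1 and DCN had at most 5 estimated reads in any library, and PDGFRA at most 12.

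The genes whose pattern over the 6 libraries was most like that of ICAM2, the member with the highest TPM, were RNPS1, CYC1 and BCAT2, with Pearson's r of log2-CPM of 0.992, 0.985 and 0.983. They were the top 3 of 14165 genes searched over the same 6 libraries, which share their depth and scaling.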

How the data were processed

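RNA of 6 TYK-nu libraries, 3 WT and 3 ZNFX1 KO, was sequenced after stranded library preparation of total RNA, and the labels put all in 1 batch. Groups and replicate numbers come from the titles. The submitters' processing notes list FastQC, Trimmomatic, Salmon and DESeq2 with no version. The authors' genome build and annotation release: not given in the sources used here. The deposited files hold estimated counts and TPM, which the authors derived with Salmon, per the labels. Of 197169 rows per file, 62260 are genes, and 134909 are transcripts not joined to a gene, with 9.93% to 10.7% of the fragments. 

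Estimated counts were rounded, filtered by filterByExpr (14166 genes) and scaled by TMM (factors 0.958 to 1.04). Genes were tested with edgeR 4.0.16 (glmQLFit, glmQLFTest, two-sided, R 4.3.3) on genotype alone, Benjamini-Hochberg adjustment over all tested genes and a threshold of 0.05. SE was taken as the size of the log2 fold change over the root of F. CPM uses gene fragments after scaling, and log2-CPM a prior count of 2. Within a group no pair of libraries agreed within sampling noise (the lowest chi-square over its degrees of freedom was 30.3). Symbols come from a gene table that named all 62260 gene rows, coordinates from GENCODE 29 (GRCh38) and promoters from RefSeq, which held 2 of the 10 members. The window of 250 bases was cut back where GENCODE 29 places an exon.

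Members and lists were chosen with earlier results of these data known. Named genes were all members and, of each other list, up to 3 called genes per direction or else the 3 highest in TPM, and others are said to be chosen afterwards or belong to the marker lists. The values of 1 gene that this rule names are not reported here. Tested on simulated data for ZNFX1 KO against WT (13887 genes), the test recovered 30% of 100 genes changed 2-fold and 95% of 100 changed 4-fold, with 11 false calls among 136.

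Alternatives were RLE size factors, library totals, no filter, a filter of 1 CPM in 3 libraries, DESeq2 1.42.0, the replicate number as a block, limma 3.58.1 on log2(TPM + 1) or log2(TPM + 0.1), transcript rows joined through GENCODE 29 (103521 rows), and leaving out each library.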

Additional observations from a re-analysis of the deposited data

How the results depend on the processing

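The count of tested members called was 0 in every alternative except without WT 3, where THBD was called, so that leaving out 1 library gave 0 to 1. CDH5, ESAM, CD93 and THBD kept their direction in all 15 alternatives. PECAM1 turned from -0.06 to 0.13 with limma on log2(TPM + 1), 0.14 with limma on log2(TPM + 0.1) and 0.10 with the replicate block, and ran from -0.39 to 0.46 when 1 library was left out. VWF ran from -0.14 to 0.62 when 1 library was left out. ICAM2 ran from -0.32 to 0.033 when 1 library was left out, with the positive value without ZNFX1 KO 2. The cause was not tested.

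Over all genes 103 were called in the main analysis, 602 without a filter, 596 by DESeq2, 48 and 66 by limma on log2(TPM + 1) and log2(TPM + 0.1), 14 with the replicate block and 187 with transcript rows joined. Leaving out 1 library gave 2 to 1315 calls (24, 57 and 1315 for WT 1, 2 and 3 in turn, and 110, 2 and 7 for ZNFX1 KO 1, 2 and 3 in turn). Of the 68 other listed endothelial and junction genes 1 was called, against 5 without a filter, 6 by DESeq2, 0 with the replicate block, 2 with transcript rows joined and 0 to 10 when 1 library was left out, with 10 without WT 3. The causes were not tested.

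Libraries with the same replicate number did not deviate together (r = 0.129, -0.0405 and 0.00691 for numbers 1, 2 and 3), so the numbers were not taken as pairs, and the replicate block called 0 members. Joining transcript rows moved the mean level of PECAM1 from 38.4 to 77.9 TPM and of ESAM from 46.6 to 62.3 TPM. At 19115530 to 21036063 gene fragments per library, CLDN5 and PLVAP were at or under the limit that 0 reads allow, and differences between the groups were not detectable for them at this depth.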

Other observations

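Adhesion genes that endothelium switches on under cytokines were nearly silent in all libraries. SELE and VCAM1 had at most 4 estimated reads in any library, SELP had 0 in all 6, and ICAM1 ranged from 4 to 42 estimated reads, with the most in WT 2. Genes known from lymphatic or sinusoidal endothelium, looked at after their values were seen, were mixed. PROX1 and STAB2 had 0 reads in all libraries, LYVE1 at most 5 and FLT4 at most 10. MMRN1, which lymphatic endothelium also carries, was at a mean of 209 TPM, and STAB1, a relative of STAB2, had 59.5 to 766 estimated reads.

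ZNFX1 KO 1, in which VWF was highest, was also the highest library for NOS3, APLN and STAB1, which were picked for this after their values were seen. NOS3, the endothelial nitric oxide synthase, was at 614 CPM there, against 121 to 262 CPM in WT and 204 and 302 CPM in ZNFX1 KO 2 and 3. APLN, the apelin ligand, was at 693 CPM against 214 to 417 CPM in WT and 418 and 474 CPM in the other KO libraries. STAB1, a scavenger receptor of sinusoidal endothelium, was at 37.1 CPM against 3.03 to 12.2 CPM in WT and 9.36 and 10.1 CPM in the other KO libraries. NOS3, APLN and STAB1 did not pass over all genes (edgeR adjusted p = 0.295, 0.280 and 0.339). Other genes of the same list went the other way. ZNFX1 KO 1 was the lowest library for ROBO4, at 20.17 CPM, MCAM, at 666 CPM, and CALCRL, at 20.0 CPM. A high level in ZNFX1 KO 1 is therefore no trait of the list.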
